A study of Homo sapiens with 8 samples.

Results

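5S and 5.8S ribosomal RNA (rRNA), the 2 small RNAs of the large ribosomal subunit, were followed through aldehyde-reactive probe (ARP) sequencing of WT and ALKBH1 KO cells of the human line HEK-293, which came from embryonic kidney, as the labels name it (the study text speaks of the derivative 293T). Their peaks were taken as the plus-strand peaks on the 5S reference (RNA5S1) and the plus-strand peaks on the 45S precursor reference (RNA45SN1) that overlapped reference positions 6593 to 6760, which hold 5.8S (RNA5-8SN1). This rule used reference, position and strand but no count, and it was set with earlier results of these data known. It gave 16 of the 4746 deposited peaks, exactly 1 peak per RNA in each of the 8 libraries. After peaks of all libraries that overlapped were merged, each RNA was 1 of 1373 regions. Both were among the 186 regions with a peak in every library, so every peak of both RNAs passed the filter used for the tests.

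ARP puts a biotin on aldehydes, among them that of 5-formylcytidine (f5C), which the dioxygenase ALKBH1 makes from 5-methylcytidine. Total RNA of each line was broken into fragments of 150 nt, an f5C oligo was added as a spike-in, and the mix was treated with 2 mM ARP. One library was made before streptavidin pulldown (input) and one after it (IP), with 2 replicates per group, giving WT input, KO input, WT IP and KO IP. All 4 groups were therefore ARP-treated, and the groups differed in genotype and in pulldown. The study made ALKBH1 KO lines with CRISPR/Cas9, the labels do not say which of them was sequenced, and a difference between genotypes cannot be told apart from any other difference between the lines. The study text calls the replicates biological, but the labels name no separate cultures, so p-values measure the spread between these libraries.

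5S is transcribed by RNA polymerase III from a tandem gene cluster outside the nucleolus. 5.8S is cut out of the 45S precursor of RNA polymerase I, where it lies between 18S and 28S and is flanked by the internal transcribed spacers ITS1 and ITS2, and it stays base-paired to 28S in the ribosome. A longer form of 5.8S with a few more bases at its 5′ end is known beside the common short form. Both RNAs are abundant in growing cells and each ribosome holds one copy of each.

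5S (RNA5S1, on chromosome 1) is a single non-coding exon of 121 nt. 5.8S is shown as DNA letters from the GRCh38 genome at its RefSeq position, so that its peaks can be read against it.
5.8S (RNA5-8SN1, chr21:8439822-8439978, plus strand, inside the RNA45SN1 transcript) is 157 nt long. It is shown with the 8 bases of ITS1 before it, where the input peaks began, and the capitals mark the mature RNA.
5.8S rRNA: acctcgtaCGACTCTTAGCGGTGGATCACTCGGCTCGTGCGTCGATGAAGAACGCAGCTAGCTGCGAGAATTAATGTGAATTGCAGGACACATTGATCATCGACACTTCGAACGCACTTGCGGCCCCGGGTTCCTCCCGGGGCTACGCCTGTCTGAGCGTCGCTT
Cytidine, the base that can carry f5C, made up 45 of the 157 bases of 5.8S (28.7%), against 26.7% in 18S and 33.4% in 28S. The reads cannot be traced to 1 gene copy. Of 17 RNA5S genes on chromosome 1, 16 had the sequence of the reference copy, and all 3 RNA5-8SN genes on chromosome 21 had that of theirs. Both counts include the reference copy itself.

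The values were unique cDNA counts per peak, and the lowest listed count was 10. Summed over all peaks, a library held between 48380 counts (WT IP replicate 2) and 285539 counts (KO input replicate 2), in 371 to 1047 peaks. The KO inputs held more counts than any other library, so values were compared as shares or after scaling. The targeted gene could not check the labels, since ALKBH1 had 0 peaks in the 8 libraries.

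The 5S peak had nearly the same extent in every library. It ran from base 2 to base 109 of 5S in both WT inputs and from base 2 to base 108 in the other 6 libraries, which left the last 12 or 13 bases outside. The 5.8S peak differed between the fractions. In all 4 inputs it began 8 nt before the mature 5′ end and stopped 17 nt short of the 3′ end, and in all 4 IPs it began 7 nt before the 5′ end and stopped 12 nt short of the 3′ end. The last 27 bases of 5.8S (chr21:8439952-8439978) are shown with the 5 bases that only the IP peaks reached in capitals.
5.8S rRNA, 3′ end: ggggctacgcCTGTCtgagcgtcgctt
The same shift was thus seen in WT and KO. The peaks at the start of 18S and 28S began 2 to 5 nt before those RNAs, 5 nt before 28S in the inputs and 2 nt before it in the IPs. No library had a peak inside ITS1 or ITS2, and the nearest peaks lay 1082 to 1087 nt upstream and 1177 to 1179 nt downstream of the 5.8S peak. The lists give the limits of a peak and not the position of each cDNA, so counts within the peaks could not be compared, and the boundaries are given as a description. The study identified sites from reverse transcription stops and grouped them into peaks in its crosslinking data, which went through the same pipeline. Bases outside a peak need therefore not lack reads.

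**Figure D1:**
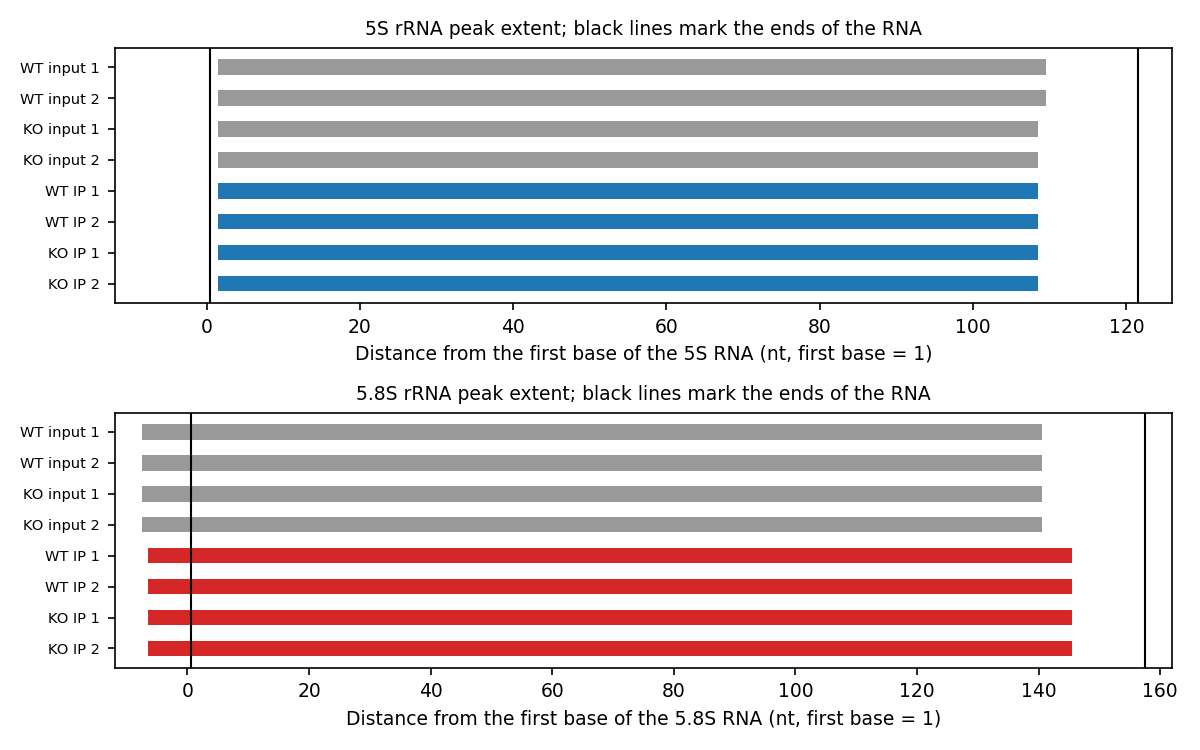
Extent of the 5S peak (top) and the 5.8S peak (bottom) in each library, in nt from the first base of the RNA. Grey bars are inputs, coloured bars are IPs and black lines mark the ends of the RNA. The 5S bars end at base 109 in the WT inputs and at base 108 elsewhere, and the 5.8S bars end 5 bases further in the 4 IPs than in the 4 inputs.

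In the inputs, both RNAs were among the largest peaks. 5S had 4800 and 5037 counts in WT input and 9993 and 14046 counts in KO input. Its share of the peak counts was 5.12% ± 0.0308 (SD, n = 2) in WT input and 5.03% ± 0.155 (SD, n = 2) in KO input, so the groups overlapped. 5.8S was the largest peak of each input, with 10157 and 9736 counts in WT and 16401 and 21331 in KO. Its share was 10.4% ± 0.600 (SD, n = 2) in WT input and 7.95% ± 0.680 (SD, n = 2) in KO input, and both WT libraries lay above both KO libraries.

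After pulldown, both RNAs held a smaller share, most of all in WT. 5S had 1479 and 1070 counts in WT IP and 2142 and 2107 counts in KO IP. These were 2.24% ± 0.0349 (SD, n = 2) of the peak counts in WT IP and 4.03% ± 0.0223 (SD, n = 2) in KO IP. 5.8S had 2645 and 1705 counts in WT IP and 2822 and 2510 counts in KO IP, or 3.78% ± 0.367 and 5.05% ± 0.331 (SD, n = 2 each). For both RNAs, each KO IP lay above each WT IP. Among the peaks of a library, 5S went from the 2nd or 3rd place in the inputs to the 6th in both WT IPs and the 3rd or 4th in the KO IPs, and 5.8S from the 1st place to the 3rd in WT and the 2nd in KO.

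**Figure D2:**
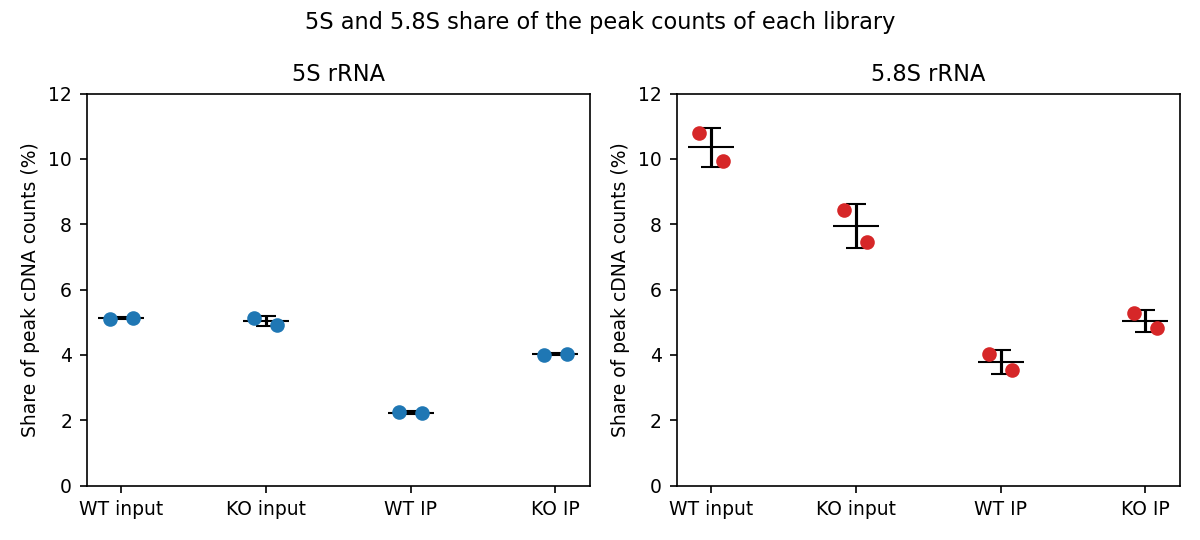
Share of all peak cDNA counts of a library, in percent, that lay in the 5S peak (left) and the 5.8S peak (right). Points are libraries, and black lines are group means with SD (n = 2). The lowest values for both RNAs are in WT IP, at 2.24% for 5S and 3.78% for 5.8S.

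The counting error was small beside these differences. The 95% Wilson interval of the 5S share ran from 2.08% to 2.35% in WT IP replicate 2, which had the fewest counts, and from 3.88% to 4.21% in KO IP replicate 2. For 5.8S in the same libraries it ran from 3.36% to 3.69% and from 4.63% to 5.00%. These intervals cover counting error only. The order of the 5S levels was WT input, KO input, KO IP and WT IP, and the order of the 5.8S levels was the same. In the edgeR fits below, the neighbours in this order that did not pass were WT input and KO input for both RNAs and KO IP and WT IP for 5.8S.

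Over both genotypes, 5S held 2.21% to 4.04% of the counts in the 4 IPs and 4.92% to 5.14% in the 4 inputs. The difference of the means was -1.94 percentage points (two-sided exact permutation test, p = 0.0286, adjusted p = 0.0429 over 3 values). 5.8S held 3.52% to 5.28% in the IPs and 7.47% to 10.8% in the inputs, a difference of -4.74 percentage points (two-sided exact permutation test, p = 0.0286, adjusted p = 0.0429). That p is the smallest that 4 libraries against 4 can give. Within 1 genotype, 2 libraries against 2 cannot go below a p of 0.333, so the comparisons within and between genotypes rest on edgeR fits over all regions with a peak in every library compared.

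The first such comparison sets WT IP against WT input. Its values are relative, so they do not give the amount of an RNA that was pulled down. Relative to the other regions, 5S was 2.39-fold lower in WT IP than in WT input (log2 fold change -1.26 ± 0.07 (SE), edgeR adjusted p = 0.000802). 5.8S was 2.87-fold lower (-1.52 ± 0.08, edgeR adjusted p = 0.000802). Of the 243 regions tested, 117 passed (48.1%) and 61 of these were lower (25.1%), beside 2 of 2 for the small rRNAs. 5S stood at the 48th place and 5.8S at the 38th place from the lowest log2 fold change. Both passed under all 16 alternatives. In each comparison 4 of these leave out a library, so that a group of 1 library is assumed to vary like the rest (8 of 21 for the interaction below, which has 21 alternatives). Keeping only peaks wholly inside the 5S reference and the 5.8S interval dropped no peak. That alternative repeats the main fit in every comparison and adds no support.

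In KO cells the same comparison gave values nearer to 0. 5S was 1.34-fold lower in KO IP than in KO input (log2 fold change -0.42 ± 0.11 (SE), edgeR adjusted p = 0.0147) and 5.8S was 1.69-fold lower (-0.75 ± 0.13, edgeR adjusted p = 0.00303). Here 139 of 246 regions passed (56.5%), 76 of them lower (30.9%). The 5.8S result passed under all 16 alternatives and the 5S result under 14. Without KO IP replicate 1 the 5S value was -0.32 (edgeR adjusted p = 0.132), and with a mean count of at least 50 as a filter it was -0.21 (edgeR adjusted p = 0.0818). With uncalled regions set to the lowest listed count, the KO values were as low as -1.33 for 5S and -1.66 for 5.8S, beside -1.63 and -1.88 in WT under that setting. Over the 16 alternatives the 5S adjusted p ran from 4.5e-12 to 0.132.

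The longer rRNAs of the same ribosomes held regions that went either way. In WT, 4 of 10 tested 18S regions and 10 of 23 tested 28S regions were lower in IP, 1 and 2 were higher, and the medians of the log2 fold change were -0.74 for 18S and -0.26 for 28S, beside -0.17 over all 243 regions. In KO, 4 of 9 18S regions were lower and 1 was higher, while 9 of 25 28S regions were lower and 8 were higher. The KO medians were -0.41 for 18S and 0.14 for 28S, beside 0.04 over all 246 regions. 5.8S lay below the medians of 18S and 28S in each genotype, and so did 5S in WT, while 5S in KO lay next to the 18S median.

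Other RNA polymerase III transcripts were counted from a list of 20 genes. Of these, 19 were in the annotation (GENCODE release 44) and 11 had a peak, in 14 regions. In WT, 2 of 7 tested regions were lower in IP (RPPH1, the RNA of RNase P, at -1.21, and the vault RNA VTRNA1-2 at -1.96) and 5 did not pass. DESeq2 called 1 of these 7, and 25.1% of all regions were lower in that comparison. In KO, VTRNA1-2 was lower (-0.99), RN7SL1, an RNA of the signal recognition particle, was higher (0.62), and the other 4 did not pass. There 30.9% of all regions were lower, and DESeq2 called 3 of the 6. The median over the list was -0.41 in WT and 0.01 in KO.

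Set against each other, the IPs of the 2 genotypes differed for 5S. It was 1.51-fold lower in WT IP than in KO IP (log2 fold change -0.59 ± 0.10 (SE), edgeR adjusted p = 0.00159), which passed under 15 of 16 alternatives. Without KO IP replicate 2 the value was -0.65 and no longer passed (edgeR adjusted p = 0.0559, against a range from 9.2e-11 to 0.0559 over the alternatives). 5.8S was at -0.16 ± 0.11 (SE) and did not pass (edgeR adjusted p = 0.326). Scaled to peak totals without other factors, 5.8S was at -0.42 and passed (edgeR adjusted p = 0.0177), as it did without WT IP replicate 1 at -0.27 (edgeR adjusted p = 0.00839), and over the 16 alternatives its adjusted p ran from 0.00839 to 0.923. Of 220 regions tested, 82 passed (37.3%), 41 of them lower in WT IP (18.6%). In the same fit 5 of 11 18S regions and 19 of 28 28S regions were lower in WT IP, with medians of -0.64 and -1.10 beside 0.03 over all regions. From the Pol III list RN7SL1 (-0.63), RPPH1 (-1.08) and RN7SK, an inhibitor of transcription elongation (-0.97), were lower in WT IP, and 3 did not pass.

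The inputs show how the lines differed before pulldown. 5S was at a log2 difference of 0.067 ± 0.095 (SE) in WT input over KO input (edgeR adjusted p = 0.600), and its sign turned under 5 of 16 alternatives, none of which passed. 5.8S was at 0.42 ± 0.13 (SE), 1.34-fold higher in WT input, with an unadjusted p of 0.0260 in edgeR and an adjusted p of 0.0607. The 5.8S value passed under 7 of 16 alternatives, DESeq2 among them (0.49, adjusted p = 5.1e-06), and turned to -0.078 with uncalled regions set to the lowest listed count. Its adjusted p ran from 5.1e-06 to 0.671. Of 400 regions tested, 141 passed (35.2%), 79 of them lower in WT input (19.8%), and between 0 and 82 passed when 1 library was left out. In this comparison 9 of 22 18S regions and 14 of 34 28S regions were lower in WT input. None of the 9 Pol III list regions passed in edgeR or DESeq2, and 1 had an unadjusted p under 0.05 in edgeR.

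Whether the IP to input change differed between the genotypes was tested with an interaction term over all 4 groups. That fit had its own regions and scaling factors. For both RNAs the interaction was smaller than the gap between the WT and KO values above (-1.26 and -0.42 for 5S, -1.52 and -0.75 for 5.8S). Its scaling factors were 1.16 and 1.04 for WT input and 0.89 and 0.88 for WT IP. In the fit of the WT libraries alone they were 0.98 and 0.99, and 1.06 and 0.97. For 5S the IP to input change was 1.41-fold lower in WT than in KO (log2 difference of the changes -0.50 ± 0.14 (SE), edgeR adjusted p = 0.0305). It passed under 16 of 21 alternatives. With the input and IP of 1 genotype and number taken as a pair, an alternative chosen after the data had been seen, it was -0.49 ± 0.16 (SE) and did not pass (edgeR adjusted p = 0.0571). The call was also lost without WT IP replicate 2 (-0.46, edgeR adjusted p = 0.160), without KO input replicate 1 (-0.55, edgeR adjusted p = 0.0574) and without KO IP replicate 2 (-0.48, edgeR adjusted p = 0.0565). It did not pass either with uncalled regions set to the lowest listed count (-0.21, edgeR adjusted p = 0.724), and the range of its adjusted p was 3.1e-12 to 0.724. For 5.8S the interaction was -0.41 ± 0.17 (SE) and did not pass (edgeR adjusted p = 0.103), while 9 of 21 alternatives did pass and the adjusted p ran from 0.00109 to 0.856. With the same pairs 5.8S was at -0.42 (edgeR adjusted p = 0.101), and with 1 block per replicate number over both genotypes it passed at -0.42 (edgeR adjusted p = 0.0405). Of 186 regions 56 passed (30.1%), 19 of them lower (10.2%). The 18S regions had a median of -0.03 and the 28S regions of -0.66, with 2 of 9 and 7 of 17 lower, beside 0.04 over all regions. None of the 6 tested Pol III list regions passed in edgeR, with none at an unadjusted p under 0.05, and 1 passed in DESeq2. Merging peaks only at an overlap of at least 5 nt was a setting outside the 21. It moved 5S to -0.83 (edgeR adjusted p = 0.000368) and 5.8S to -0.76 (edgeR adjusted p = 0.00473). With 1 peak per RNA and library, that setting did not change the counts of either RNA. The median of all regions moved from 0.04 to -0.27 under it. With the main merging and scaling to peak totals, 5S was at -0.87 and 5.8S at -0.80. The size of both interactions thus depended on the scaling over the other regions.

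**Figure D3:**
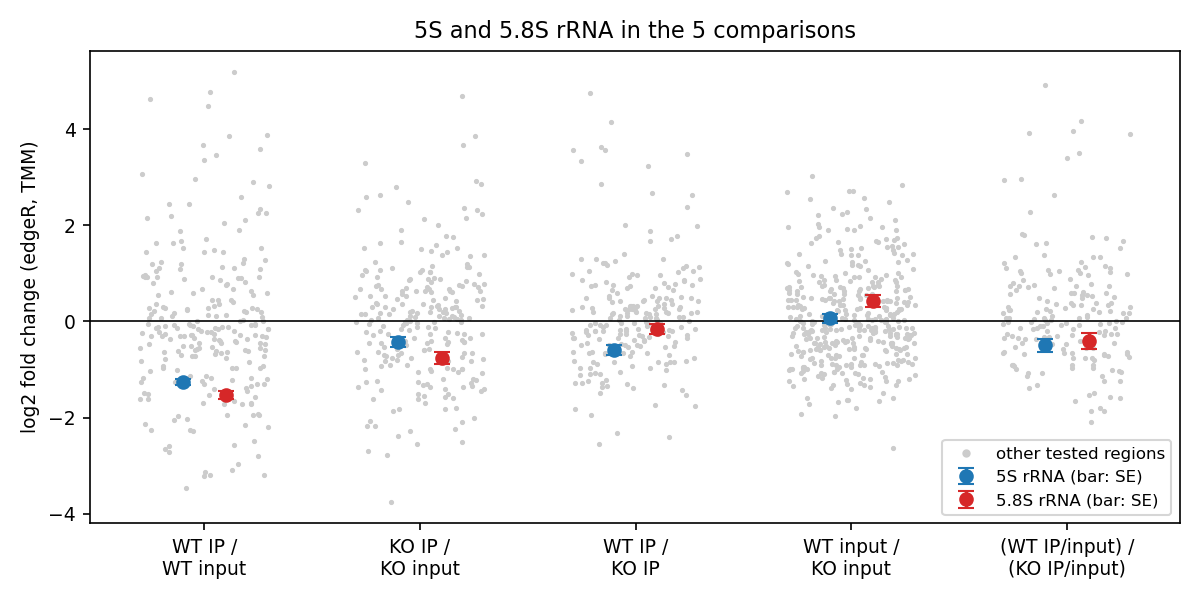
log2 fold changes from edgeR with TMM scaling in the 5 comparisons. Blue and red points are 5S and 5.8S with their SE, and grey points are the other tested regions, spread sideways at random. In WT IP against WT input 5S lies at -1.26 and 5.8S at -1.52, and in KO IP against KO input they lie at -0.42 and -0.75.

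Ratios within a library need no scaling. The 5.8S to 5S ratio of summed counts was 2.12 and 1.93 in WT input, 1.64 and 1.52 in KO input, 1.79 and 1.59 in WT IP and 1.32 and 1.19 in KO IP. Each KO library lay below both WT libraries of the same fraction. On the log2 scale the IPs were 0.30 below the inputs on average, which did not pass (difference -0.30, two-sided exact permutation test, p = 0.143, adjusted p = 0.143). That test takes the libraries as unpaired over both genotypes. Between the input and the IP of the same genotype and number, the log2 ratio changed by -0.24 and -0.28 in WT and by -0.32 and -0.35 in KO, lower in 4 of 4 pairs, and exact sign flips within the pairs gave p = 0.125, the smallest that 4 pairs can give. The log2 ratio was 0.39 higher in the 4 WT than in the 4 KO libraries, a comparison chosen after the ratios had been seen, and it did not pass either (two-sided exact permutation test, p = 0.0571, with no adjustment). Counted per nt of RNA, the ratio was 1.56 ± 0.0998 in WT input, 1.22 ± 0.0668 in KO input, 1.30 ± 0.106 in WT IP and 0.967 ± 0.0688 in KO IP (SD, n = 2 each). Counts per nt also depend on how each RNA fragments and is reverse transcribed.

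Against 18S, the 5S level was lower after pulldown in WT, while the KO groups overlapped. The 5S to 18S ratio was 0.478 ± 0.0173 in WT input and 0.291 ± 0.0142 in WT IP, but 0.422 ± 0.000654 in KO input and 0.423 ± 0.0296 in KO IP (SD, n = 2 each). Against 28S, 5S was lower in the IPs of both genotypes, at 0.333 ± 0.00381 and 0.212 ± 0.0395 in WT input and IP and at 0.248 ± 0.00130 and 0.183 ± 0.00488 in KO input and IP. The 5.8S to 28S ratio, between RNAs that pair in the ribosome, was 0.674 ± 0.0354 in WT input and 0.356 ± 0.0375 in WT IP. In KO it was 0.391 ± 0.0194 in input and 0.229 ± 0.0102 in IP. The 5.8S to 18S ratio went from 0.968 ± 0.0969 to 0.494 ± 0.0642 in WT and from 0.667 ± 0.0355 to 0.532 ± 0.0749 in KO. The sums of 18S and 28S run over many peaks and move with how many were called, and 2 libraries against 2 allow no exact test below the threshold, so these ratios are given as values.

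**Figure D4:**
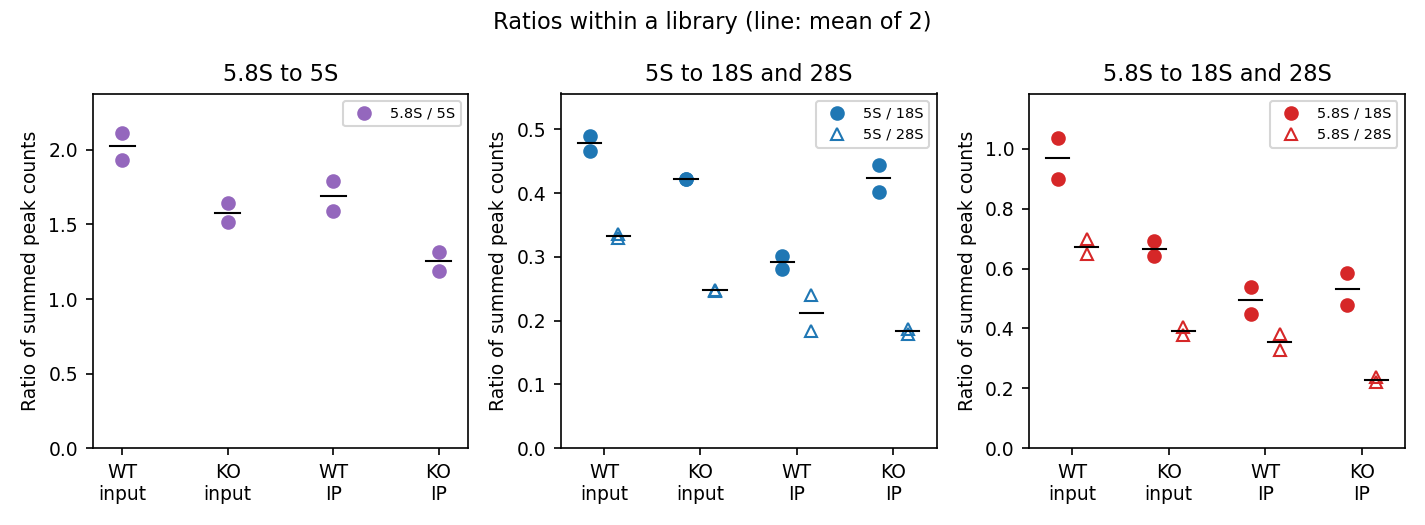
Ratios of summed peak counts within each library: 5.8S to 5S (left), 5S to 18S and 28S (middle), and 5.8S to 18S and 28S (right). Points are libraries and lines are means of 2. The 5S to 18S ratio is 0.478 in WT input and 0.291 in WT IP, while the KO groups lie at 0.422 and 0.423.

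Across the 8 libraries the 5S level in CPM (the count relative to the library total) moved most like other rRNA regions. Pearson's r of the log2 CPM was 0.989 with bases 2738 to 2747 of 28S, 0.967 with bases 4920 to 5053 of 28S, 0.965 with the peak over the start of 28S, 0.964 with bases 1017 to 1028 of 18S and 0.963 with tRNA-Lys-CTT-1. The 5 regions most like 5.8S were tRNAs: tRNA-Arg-CCG-2-1 (0.980), tRNA-Lys-CTT-4-1 (0.976), tRNA-Gly-TCC-2 (0.974), tRNA-Lys-CTT-1 (0.972) and tRNA-Lys-CTT-2 (0.966). The r between 5S and 5.8S was 0.894. Over the 184 other regions with a peak in all libraries the median r was 0.0257 with 5S and 0.163 with 5.8S. These are descriptions over 8 libraries that share 4 groups and their peak totals.

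The genome lists were searched for copies of both RNAs. Of 528 annotated 5S and 5.8S copies and pseudogenes, 1 had a peak, RNA5SP202 at chr6:4428028-4428049. Reads were mapped to tRNA and rRNA before the genome, so reads of either RNA reached the copies only when they had not matched there.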

How the data were processed

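Per the study's methods, the authors used iCount on the iMaps server: PCR duplicates were discarded by their unique molecular identifiers, and reads were mapped with STAR to tRNA and rRNA and then, if unmapped, to GRCh38, keeping unique genome hits. Paraclu with default settings called peaks in each library separately. The deposited value is the cDNA count of a peak, without normalization, in 2 lists per library. The spike-in was not analysed here. The totals are sums over called peaks, not sequencing depth.

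Overlapping peaks of all libraries (at least 1 nt, same strand) were merged, and 5S and 5.8S were summed over their peaks. All regions listed in each compared library entered a two-sided quasi-likelihood test in edgeR 4.0.16 (R 4.3.3), with TMM factors on the sums over tested regions and a Benjamini-Hochberg threshold of 0.05, after the code had been tested on simulated data. Regions without a peak in any one of those libraries were therefore not tested. The SE is the size of the log2 fold change over the square root of F. Shares and ratios were tested by exact permutation (scipy 1.17.1). The 5S sequence is not reported here. Other positions and sequences came from RefSeq GRCh38.p14 and the GRCh38 FASTA, and other genes from GENCODE release 44. The regions named are both small rRNAs, fixed lists of other rRNA, RNA polymerase III transcripts and 5S or 5.8S copies, and the 5 regions most like each RNA.

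The members, lists and tests were chosen with earlier results of these data known. Whether TMM was applied to the sums over tested regions or to the full peak totals was settled after both had been seen, and no call on 5S or 5.8S differs between them. The input was taken from the ARP-treated RNA before pulldown, so the input and IP of 1 genotype and number may come from 1 preparation, which the labels do not state. The deviations of such libraries from their group means correlated at 0.494 in WT and 0.234 in KO. Between groups of different genotype the same correlation ran from -0.0529 (KO input with WT IP) to 0.442 (WT input with KO IP). These values therefore do not show whether input and IP were paired. Both the fit without pairs and the paired fit are given where they differ. Alternatives covered scaling, DESeq2 1.42.0, uncalled regions, count and score minimums, the replicate number as a block, leaving out each library, and overlap rules. Shares of counts in the 3′ part of each RNA had been planned, but with 1 peak per RNA and library they cannot be computed.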

Additional observations from a re-analysis of the deposited data

Results flagged for a closer look

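The 5S interaction between genotype and pulldown was singled out because the IP to input change differed between WT and KO in the test of that difference (log2 -0.50, edgeR adjusted p = 0.0305). It did not pass under 5 of 21 alternatives, pairing of input and IP within a genotype among them (-0.49, edgeR adjusted p = 0.0571). 5S stood at the 49th place of 186 from the lowest value, and 56 of the 186 regions passed (30.1%), 19 of them lower (10.2%). A region of MT-RNR1 had a larger interaction of the same sign (-1.24, edgeR adjusted p = 0.00583). Of the 5 regions most like 5S, larger ones passed for bases 2738 to 2747 of 28S (-1.80, edgeR adjusted p = 0.00934) and tRNA-Lys-CTT-1 (-0.92, edgeR adjusted p = 0.0159). The others of these regions did not pass.

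Minus-strand peaks over 5.8S lay outside the comparisons and were larger in the KO inputs than in the WT inputs. KO input replicate 1 listed 45 counts (reference positions 6528 to 6643) and KO input replicate 2 listed 70 counts (6527 to 6643), which were 0.274% and 0.328% of the plus-strand 5.8S counts. WT input replicate 2 listed 10 counts (6639 to 6640), WT input replicate 1 and the 4 IPs listed no such peak, and the difference was not tested. The lowest listed count of 10 was worth 51.4 and 35.0 CPM in the KO inputs and 106 and 102 CPM in the WT inputs. A peak was thus listed from a lower level in KO. Put in CPM, the 45 and 70 counts lay above the lowest listed level of every library. They were summed over wider peaks than the 10 counts of WT input replicate 2. Why these peaks differed was not tested. Over 5S, KO input replicate 2 alone listed a minus-strand peak, with 10 counts.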

How the results depend on the processing

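Of 275 recomputed values, 203 kept their direction and their side of the threshold, 26 were no longer called, 18 became called, 6 changed sign and 22 counts of called RNAs moved. The cause of these changes was not tested, except that leaving out a library or pairing the libraries raises the smallest p of the exact tests to 0.0571 and 0.125.

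In WT IP against WT input no setting changed a call, and leaving out a library gave -1.24 to -1.03 for 5S and -1.55 to -1.21 for 5.8S. In KO IP against KO input 5S was -0.21 with a mean count of at least 50 (1 RNA called), and leaving out a library gave -0.59 to -0.32 (1 to 2 RNAs called). Between the IPs 5.8S passed on peak totals (-0.42, 2 RNAs called), and leaving out a library gave -0.29 to -0.031 for 5.8S and -0.65 to -0.54 for 5S (0 to 2 RNAs called). Between the inputs 5S turned to -0.035 on tRNA and rRNA list totals, -0.058 with uncalled regions at 0, -0.43 with them at the lowest count, -0.013 for scores above 100 and -0.015 without KO input replicate 2, within a range from -0.015 to 0.081 for left-out libraries. There 5.8S passed with RLE factors (0.49), peak totals (0.38), list totals (0.32), DESeq2 (0.49), a mean count of at least 50 (0.53) and scores above 100 (0.34) or 20 (0.40), and it turned to -0.078 with uncalled regions at the lowest count. RLE factors, peak totals, DESeq2 and the mean count each called 1 RNA between the inputs, against 0.

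In the interaction 5S was -0.21 with uncalled regions at the lowest count and -0.79 to -0.46 without 1 library, and with a replicate block within each genotype (added after the data were seen) it was -0.49, which calls 0 RNAs. There 5.8S passed with RLE factors (-0.59), peak totals (-0.80), DESeq2 (-0.59), uncalled regions at 0 (-0.76), a mean count of at least 50 (-0.63), scores above 20 (-0.74) and the replicate block (-0.42), and was -0.78 to -0.30 without 1 library. These settings for 5.8S and the overlap of 5 nt each called 2 RNAs, against 1 (0 to 2 without 1 library). 5.8S passed here without WT input replicate 2 and without WT IP replicate 1.

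The share differences were -2.24 to -1.64 percentage points for 5S and -5.30 to -4.20 for 5.8S without 1 library, and -1.94 and -4.74 under the replicate block, where exact sign flips within 4 pairs gave p = 0.125 for each. The block changed no call within a genotype or between IPs or inputs. Where a library was left out, its partner alone was assumed to vary like the other groups.

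Scaling moved the median of all regions from -0.17 to 0.27 (WT IP against WT input, tRNA and rRNA list totals) and from 0.04 to -0.34 (interaction, peak totals). The number of regions called, 117, 139, 82, 141 and 56 in the order of the report, became 32, 46, 28, 72 and 17 for scores above 100, and with uncalled regions at 0 it became 190, 449, 110, 8 and 85. With uncalled regions at the lowest count it was 172, 554, 78, 228 and 95. Leaving out 1 library called 94 to 111, 117 to 149, 46 to 97, 0 to 82 and 33 to 67 regions, and between the inputs 0 were called without WT input replicate 2, KO input replicate 1 or KO input replicate 2. Of those called, 56 were higher in the WT comparison and 78 of 126 on tRNA and rRNA list totals. Between the IPs it was 41 and 28 of 83 on peak totals, between the inputs 62 and 90 of 144 in DESeq2, and in the interaction 37 and 21 of 69 on peak totals.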

Other observations

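The mitochondrial rRNAs MT-RNR1 and MT-RNR2, which are transcribed and processed apart from the cytosolic rRNAs, were tested in the same fits as 5S and 5.8S. In WT, 1 of 2 tested regions was lower in IP than in input (MT-RNR1, -1.53), beside 25.1% of all regions. In KO, 4 of 8 were lower and 1 was higher in edgeR, beside 30.9% lower over all regions, and DESeq2 called 2 of the 8. Between the IPs, 2 of 3 were lower in WT, beside 18.6%. Between the inputs 3 of 12 were lower in WT, beside 19.8%, and 1 was higher, while DESeq2 called 3 of the 12. In the interaction 1 of 2 was lower (MT-RNR1, -1.24, edgeR adjusted p = 0.00583), beside 10.2%.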
